A study of Mus musculus with 130 samples.

Results

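The D-type cyclins, their kinase partners and the inhibitors of those kinases were followed in the transcriptomes of mouse embryonic stem cells, with Ccnd2 as the gene of main interest. The 10 genes were taken as listed, from 52550 genes per library: the cyclin genes Ccnd1, Ccnd2, Ccnd3 and Ccne1, the kinase genes Cdk4 and Cdk6, the INK4 inhibitor genes Cdkn2a, Cdkn2b and Cdkn2c, and the inhibitor gene Cdkn1b. All 10 were found in all 10 RNA libraries, and 8 of them reached 1 CPM (count scaled to library size) in at least 1 library.

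Each of the 10 libraries was the single library of its group. The G9a lines derive from TT2 (strain C57BL/6xCBA) and comprise a library labelled G9a/GLP DKO (here the labelled G9a/GLP DKO; genotype G9a-/-;GLP-/-, clone 248-6), G9a CM (G9a-/- with a G9a transgene carrying Y1120V and Y1207F under a promoter the labels do not name, clone G7) and wild-type cells (WT TT2). The Dnmt lines derive from J1 (strain 129S4/SvJae) and comprise DnmtDKO (genotype Dnmt 3a/3b-/-), DnmtTKO (genotype Dnmt1/3a/3b-/-) and wild-type cells (WT J1). The remaining libraries came from wild-type TT2 cells that received DMSO (the inhibitor control) or UNC0638, an inhibitor of G9a and GLP. The UNC0638 libraries were collected on day 2, day 4 or day 14, while the title of the inhibitor control gives no day. Time in culture and treatment therefore cannot be told apart in the comparisons with that control. The UNC0638 dose reads 250 nM in the titles but 250 µM in the protocol for the treatment. Whether UNC0638 was given until day 14 is not stated. G9a and GLP, encoded by Ehmt2 and Ehmt1, methylate histone H3 at lysine 9, and the Dnmt enzymes methylate cytosine in CpG. All cells grew on gelatin in serum medium that held leukemia inhibitory factor, and each mutant line is a clone or has no stated number of clones.

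D-type cyclins switch on Cdk4 and Cdk6 in G1. These kinases begin the phosphorylation of the retinoblastoma protein, which lets E2F factors read S phase genes, and cyclin E with Cdk2 carries this further. INK4 proteins bind Cdk4 and Cdk6 and block their partnership with D-type cyclins, whereas p27Kip1, the product of Cdkn1b, binds cyclin and kinase together. Mouse embryonic stem cells are known for a short G1 phase and for high activity of cyclin E with Cdk2.

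The promoters of Cdkn2b and Ccne1, which were higher in both Dnmt lines, are shown first because CpG is the substrate of the enzymes those lines lack, together with that of Cdk4, the gene whose level varied least. Windows of 250 bases upstream of a gene start, from RefSeq (GRCm38.p6), were matched for 8 of the 10 genes, all but Ccnd1 and Ccnd2. The Cdkn2b window is chr4:89311033-89311282, the Ccne1 window chr7:38107491-38107740, both on the minus strand, and the Cdk4 window chr10:127063285-127063534, on the plus strand. Capitals mark each CpG in the Cdkn2b and Ccne1 windows, and each CACGTG, the palindromic E-box, in that of Cdk4.
Cdkn2b: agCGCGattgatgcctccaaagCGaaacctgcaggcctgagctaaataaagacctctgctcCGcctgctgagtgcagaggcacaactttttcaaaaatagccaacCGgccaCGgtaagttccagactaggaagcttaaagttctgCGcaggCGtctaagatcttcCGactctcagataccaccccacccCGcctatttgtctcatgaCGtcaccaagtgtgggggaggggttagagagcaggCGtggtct
Ccne1: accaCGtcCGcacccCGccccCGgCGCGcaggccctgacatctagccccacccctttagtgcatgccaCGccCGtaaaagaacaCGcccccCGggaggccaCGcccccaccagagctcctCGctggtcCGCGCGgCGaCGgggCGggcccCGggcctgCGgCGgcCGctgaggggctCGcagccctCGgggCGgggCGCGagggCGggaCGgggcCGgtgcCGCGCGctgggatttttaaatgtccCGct
Cdk4: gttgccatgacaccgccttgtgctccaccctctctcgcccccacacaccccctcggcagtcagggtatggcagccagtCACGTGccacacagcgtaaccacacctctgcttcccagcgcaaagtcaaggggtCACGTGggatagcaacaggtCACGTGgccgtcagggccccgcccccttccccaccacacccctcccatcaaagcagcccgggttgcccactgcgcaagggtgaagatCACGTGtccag
The Ccne1 window held 34 CpG, and 3.53% of all 32851 windows held at least as many. The Cdkn2b window held 12, which 33.5% of windows reached, against a median of 6 over all windows. Genes that were not higher in either Dnmt line also held many: Cdk4 13, Cdk6 22, Cdkn1b 28, Cdkn2c 29 and Cdkn2a 40. The other window of Cdkn2c held 6 and that of Cdkn2a 7, and the windows of Ccnd3 held 11 and 19. Whether CpG bears on the levels of these genes was not tested. CACGTG occurred 4 times in the Cdk4 window and once in that of Cdk6; it is present in 6.02% of windows, and 3 or more copies are present in 0.0609%. TGACGTCA, searched on both strands like all motifs here, occurred in the Cdkn2b window and in 1.55% of all windows, and it holds a CpG that is counted above. The E2F letters TTTCCCGC, TTTGGCGC, TTTCGCGC and TTTGCCGC, searched together, matched in a Cdkn2a window and in 1.86% of windows. These matches describe letters only.

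The libraries held 11436808 to 25609600 counts. Since each group held 1 library, conditions could not be tested against each other, and the intervals are exact 95% counting intervals. PCR copies could not be told from separate molecules, so the intervals cover counting error only. Higher and lower are used of a gene only where log2(CPM + 1) differed by at least 1, 1 CPM was reached in either library and the interval of the ratio excluded 1; this size rule describes libraries. In these bulk samples, fewer cells of a type and less RNA per cell cannot be told apart. Of the targeted genes, Ehmt1 stood at 7.95 CPM in the labelled G9a/GLP DKO against 38.3 in WT TT2, while Ehmt2 stood at 17.9 against 14.6 CPM and does not check the label; Dnmt3b stood at 3.05 and 2.68 CPM in DnmtDKO and DnmtTKO against 26.9 in WT J1. All 10 pluripotent stem cell markers looked for were at 1 CPM or more in every library. The 4 inhibitor libraries stood apart from the other 6: between the inhibitor control and WT TT2, both wild-type TT2 cells, 47.2% of 13667 genes passed the size rule, Pou5f1, which encodes the stem cell factor Oct4, stood at 455 against 12.5 CPM, and the summed fibroblast markers, mostly Fbln1, stood at 65.7 against 12.3 CPM. In the same order, the summed neural markers stood at 178 against 39.2 CPM, the trophoblast markers at 101 against 40.7 and the primitive endoderm markers at 14.0 against 4.76. The pluripotent stem cell markers summed to 7141 against 7669 CPM. What makes these 2 libraries differ was not tested, so each inhibitor library is set against the inhibitor control.

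Ccnd2 (ENSMUSG00000000184.12, chromosome 6, 127125162 to 127152188, GRCm38) encodes cyclin D2. In the G9a lines it was lower, at 0.866 CPM in the labelled G9a/GLP DKO and 2.95 CPM in G9a CM, against 37.8 CPM in WT TT2. These levels rest on 11, 50 and 960 counts. The ratio was 43.6-fold lower (interval 24.3 to 87.7) in the labelled G9a/GLP DKO and 12.8-fold lower (interval 9.64 to 17.4) in G9a CM, and both comparisons share WT TT2. Between the mutants, Ccnd2 was 3.40-fold lower (interval 1.75 to 7.25) in the labelled G9a/GLP DKO than it was in G9a CM, a difference that also passed the size rule but did not by deposited TPM, at 0.93 against 2.44. RSEM also deposits a posterior mean of TPM, which includes a prior for each transcript, with bounds. By that estimate Ccnd2 stood at 31.6 TPM (bounds 1.97 to 74.2) in the labelled G9a/GLP DKO and 19.3 TPM (bounds 3.06 to 42.7) in G9a CM, against 39.6 TPM (bounds 31.6 to 49.2) in WT TT2. The bounds overlapped, the ratios to WT TT2 were 0.798 and 0.488, and the labelled G9a/GLP DKO stood above G9a CM. The size of the Ccnd2 difference in the G9a lines thus depends on which RSEM estimate is used. By deposited TPM, WT TT2 stood at 34.8, near its posterior mean, whereas the labelled G9a/GLP DKO stood at 0.93, far below its own. RSEM's posterior standard deviation of the 11 counts in the labelled G9a/GLP DKO was 0.6.

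In the Dnmt lines Ccnd2 was higher, at 18.5 CPM in DnmtDKO and 9.97 CPM in DnmtTKO, against 1.95 CPM in WT J1. The counts were 310, 182 and 29. The ratio to WT J1, which both comparisons share, was 9.52-fold higher (interval 6.49 to 14.4) in DnmtDKO and 5.12-fold higher (interval 3.45 to 7.86) in DnmtTKO. The level in DnmtTKO was 0.538 times that in DnmtDKO by CPM, while the deposited TPM, a length-corrected level, were 17.05 in DnmtDKO and 17.52 in DnmtTKO against 0.82 in WT J1. By TPM the ratios to WT J1 were thus 20.8 and 21.4, outside the intervals by CPM. The posterior mean TPM were 34.8 (bounds 15.4 to 62.3) in DnmtDKO and 32.5 (bounds 10.4 to 60.2) in DnmtTKO against 15.6 (bounds 1.46 to 36.0) in WT J1, with ratios of 2.22 and 2.08 and bounds that overlapped. The effective length that RSEM gave Ccnd2, from the mix of its 8 transcripts, was 546.7 bases in DnmtTKO, 1064 in DnmtDKO and 1739 in WT J1. The length in WT J1 was the longest of the 10 libraries and rests on 29 counts. How far these lengths account for the TPM ratios was not tested. The 10 pluripotent stem cell markers summed to 14390 and 12292 CPM in DnmtDKO and DnmtTKO against 27383 in WT J1. In each line 2 of the 10 were lower and none higher, where 9.89% and 10.6% of all genes tested were lower. Some markers of other cell types were higher in the Dnmt lines. The 6 neural markers summed to 63.8 and 49.7 CPM in DnmtDKO and DnmtTKO against 20.1 in WT J1, and the 7 trophoblast markers to 41.2 and 29.3 against 10.9 CPM. Of the markers measured, at 1 CPM in either library, 2 of 5 neural ones were higher in each Dnmt line. Of the trophoblast markers measured, 3 of 4 were higher in DnmtDKO and 4 of 5 in DnmtTKO. Over all genes tested, 9.23% were higher in DnmtDKO and 11.0% in DnmtTKO. The median log2 difference of the neural markers measured was 0.70 in DnmtDKO but 0.08 in DnmtTKO. The 8 primitive endoderm markers summed to 21.3 and 26.0 CPM in DnmtDKO and DnmtTKO against 23.9 in WT J1. Of the 6 measured, 1 was lower in each line and 1 was higher in DnmtTKO. The 10 fibroblast markers summed to 18.9 and 14.6 CPM in DnmtDKO and DnmtTKO against 8.99 in WT J1. Of the 3 measured, 2 were higher in DnmtDKO and none in DnmtTKO, with median log2 differences of 1.20 and 0.57. The neural factor gene Pax6 had 408 and 211 counts in DnmtDKO and DnmtTKO against 4 in WT J1, while the trophoblast factor gene Cdx2 had 0 counts in all 3 libraries. Their part in the Ccnd2 difference was not tested.

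The baselines of these contrasts differed widely. Ccnd2 stood at 1.95 CPM in WT J1 against 37.8 CPM in WT TT2, a level 19.4-fold lower (interval 13.4 to 29.1) in WT J1, and cell line, strain and library cannot be told apart there. Both Dnmt mutants were therefore above WT J1 and below WT TT2, with log2 ratios of -1.03 in DnmtDKO and -1.92 in DnmtTKO against WT TT2. G9a CM stood below WT TT2, but its ratio to WT J1 was 1.51 (interval 0.939 to 2.48). The direction in the Dnmt lines thus held against the wild type of the same parental line and turned against that of the other line.

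After UNC0638, Ccnd2 was lower on all 3 days. It stood at 85.0 CPM in the inhibitor control, 14.2 on day 2, 20.1 on day 4 and 30.5 on day 14, from 1157, 279, 338 and 472 counts. Against the inhibitor control it was 5.98-fold lower (interval 5.25 to 6.84) on day 2, 4.23-fold lower (interval 3.74 to 4.79) on day 4 and 2.79-fold lower (interval 2.503 to 3.11) on day 14, the 3 ratios sharing that library. By CPM the lowest level was on day 2, and levels on the later days lay above it by more than counting error. By deposited TPM, day 2 and day 4 stood at 15.92 and 17.57, a ratio of 1.10 (interval 0.939 to 1.30), so that their order is not resolved there. The posterior mean TPM was 180.2 (bounds 80.6 to 329.7) in the control and 54.3 (bounds 12.2 to 134), 63.4 (bounds 13.1 to 157) and 77.5 (bounds 28.9 to 166) on days 2, 4 and 14, each day overlapping the control in its bounds. The inhibitor control itself was 2.25-fold higher (interval 2.06 to 2.45) than WT TT2, so the day 14 level lay near that of WT TT2, with a log2 ratio of -0.31 between them. On day 14, 6 of 8 primitive endoderm markers were measured and 4 were higher than in the control, where 2.92% of all genes tested were higher. The 8 markers summed to 25.2 against 14.0 CPM, and their part in the Ccnd2 level was not tested.

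**Figure D1:**
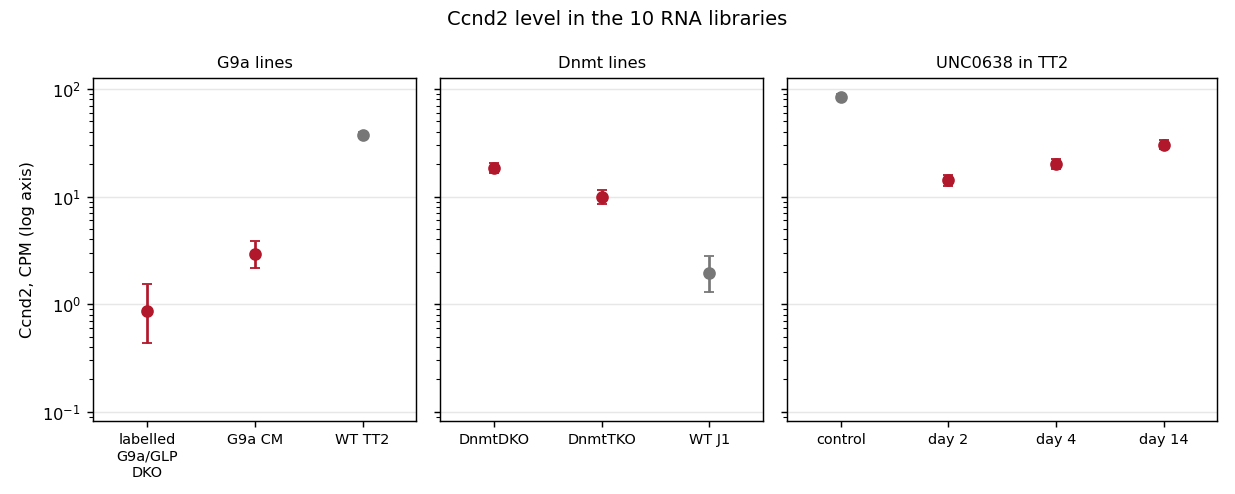
Ccnd2 level in CPM (log axis) in each of the 10 RNA libraries; points are single libraries, bars are exact 95% Poisson intervals (counting error only), and wild-type or DMSO libraries are grey. Both G9a lines lie below WT TT2, both Dnmt lines above WT J1, and the 3 UNC0638 libraries below their control.

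Ordered by CPM over all 10 libraries, the lowest Ccnd2 level was 0.866 in the labelled G9a/GLP DKO and the highest 85.0 in the inhibitor control, a 98.2-fold range that was wider than that of any of the other 9 genes; the next widest was 21.8-fold, for Ccnd3. Of the 9 pairs of neighbours in this order, only G9a CM beside WT J1 and UNC0638 day 4 beside DnmtDKO had a ratio whose interval held 1. The posterior standard deviation that RSEM gave for sharing out reads was at most 5.45% of the count, but the bounds of the posterior mean TPM overlapped in 8 of the 9 main comparisons in which Ccnd2 passed the size rule by CPM. They overlapped in 1 of the 18 such results of the other members, that of Cdk6 in the labelled G9a/GLP DKO. RefSeq places a long noncoding RNA, 9330179D12Rik, across one end of Ccnd2, and its highest level was 0.0787 CPM.

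Ccnd3 (ENSMUSG00000034165.16, chromosome 17, 47505051 to 47599689) encodes cyclin D3. It stood at 125 and 134 CPM in the labelled G9a/GLP DKO and in G9a CM, against 47.2 CPM in WT TT2. It was thus higher in both, 2.66-fold (interval 2.47 to 2.87) and 2.84-fold (interval 2.65 to 3.05), in the libraries where Ccnd2 was lower. In the Dnmt lines the levels lay closer together, at 78.6 CPM in DnmtDKO and 81.9 in DnmtTKO against 69.5 in WT J1. The inhibitor libraries had by far more, 936 CPM in the control and 628, 943 and 1026 CPM on days 2, 4 and 14, and none of these days passed the size rule. The inhibitor control was 19.9-fold higher (interval 18.7 to 21.1) than WT TT2, so the direction in the G9a lines turns when that control is used, to log2 ratios of -2.90 and -2.80. Ccnd3 overlaps Bysl at its end in RefSeq, and no source used here states whether strand was used in the counting.

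Ccnd1 (ENSMUSG00000070348.5, chromosome 7, 144929931 to 144939831), which encodes cyclin D1, stood at 52.3 and 75.5 CPM in the labelled G9a/GLP DKO and in G9a CM, against 46.6 CPM in WT TT2. Neither difference passed the size rule. It stood at 38.7 CPM in DnmtDKO and 42.9 in DnmtTKO against 21.3 in WT J1, and the larger of these differences, 0.98 on the log2 scale in DnmtTKO, lay just under the threshold of 1. By deposited TPM, Ccnd1 passed the size rule in G9a CM, at 35.8 against 17.1 in WT TT2, and in DnmtTKO, at 18.8 against 5.18 in WT J1. After UNC0638 it was lower on day 2 alone, at 129 CPM in the control and 54.4, 133 and 102 CPM on days 2, 4 and 14. The day 2 level was 2.38-fold lower (interval 2.20 to 2.57) than the control, though by deposited TPM it stood at 32.3 against 55.5 and did not pass the size rule. By CPM the day 4 level was 2.45-fold higher (interval 2.27 to 2.63) than that of day 2. Ccnd1 overlaps the protein-coding gene LTO1 at one end in RefSeq. The highest level of LTO1 was 12.0 CPM, and whether strand was used in the counting is not stated.

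Per length, the D-type cyclins made up different mixtures. In the labelled G9a/GLP DKO their TPM summed to 106.9 with 0.870% from Ccnd2, and in G9a CM to 119.8 with 2.04% from Ccnd2, against 78.5 TPM with 44.3% from Ccnd2 in WT TT2. The sum in the G9a lines was thus above that of WT TT2 although Ccnd2 was lower, and Ccnd3 held 75.8% and 68.1% of it against 33.9% in WT TT2. In DnmtDKO and DnmtTKO the sums were 72.1 and 82.1 TPM with 23.6% and 21.3% from Ccnd2, against 35.9 TPM and 2.28% in WT J1. In the inhibitor control the sum was 804 TPM with 11.2% from Ccnd2, and on days 2, 4 and 14 it was 586, 754 and 862 TPM with 2.72%, 2.33% and 4.36% from Ccnd2. Of the 10 libraries, WT TT2 was the only one in which Ccnd2 held the largest share; Ccnd3 held it in the other 9. These shares use the point estimates of TPM; by posterior mean TPM the Ccnd2 share was 24.4% in the labelled G9a/GLP DKO and 15.0% in G9a CM against 47.6% in WT TT2, and 38.7% and 33.9% in DnmtDKO and DnmtTKO against 30.3% in WT J1. Under UNC0638 that share was 21.9% in the control, 9.49% on day 2, 8.66% on day 4 and 9.56% on day 14.

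**Figure D2:**
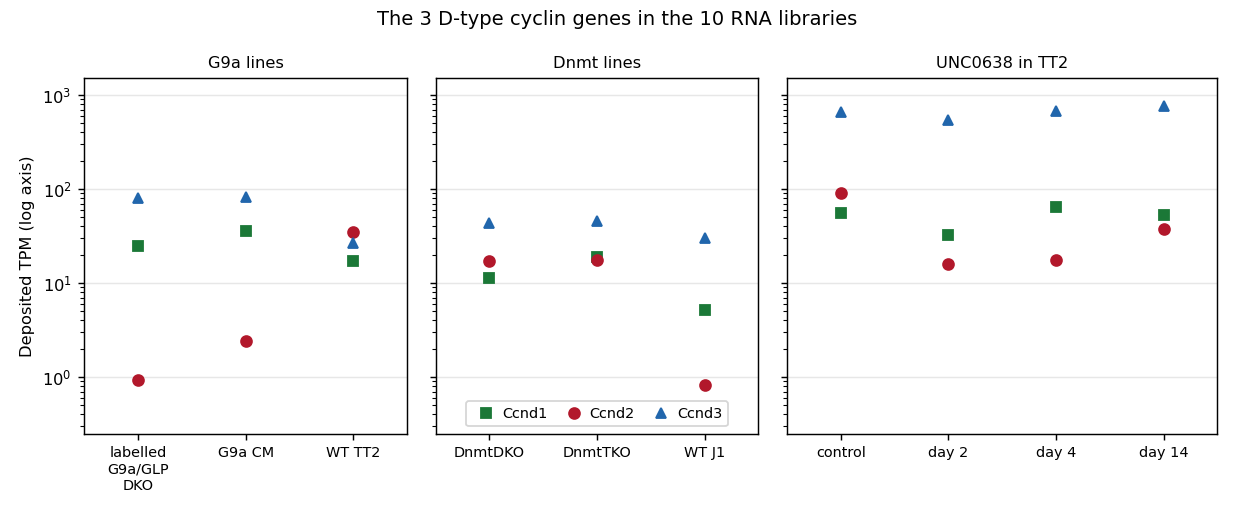
Deposited TPM (log axis) of Ccnd1, Ccnd2 and Ccnd3 in each of the 10 RNA libraries, 1 point per gene and library. Ccnd2 (circles) is the highest of the D-type cyclins in WT TT2 at 34.8 TPM and the lowest in both G9a lines, in DnmtTKO, in WT J1 and in the 3 UNC0638 libraries.

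Ccne1 (ENSMUSG00000002068.16, chromosome 7, 38097984 to 38107490) encodes cyclin E1, the partner of Cdk2. It was higher in the Dnmt lines, at 258 CPM in DnmtDKO and 306 in DnmtTKO against 96.3 CPM in WT J1. The ratios were 2.68-fold (interval 2.52 to 2.84) and 3.18-fold (interval 3.00 to 3.37). In the labelled G9a/GLP DKO and in G9a CM it stood at 344 and 339.7 CPM, against 249.9 CPM in WT TT2, and neither passed the size rule. After UNC0638 it stood at 779 CPM in the control and at 370.4, 772 and 696 CPM on days 2, 4 and 14, so that only day 2 was lower, 2.10-fold (interval 2.04 to 2.17). By deposited TPM day 2 stood at 312 against 538 and did not pass the size rule. As for Ccnd2, WT J1 was the lower wild type: Ccne1 was 2.59-fold lower (interval 2.45 to 2.75) in WT J1 than in WT TT2.

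Cdk4 (ENSMUSG00000006728.12, chromosome 10, 127063535 to 127067288), the kinase partner with the most mRNA, passed the size rule in none of the 13 comparisons made. Its lowest level was 375 CPM in DnmtTKO, its median 534 CPM and its highest 777 CPM on day 4 of UNC0638, a 2.07-fold range, the narrowest of the 10 genes. Cdk6 (ENSMUSG00000040274.11, chromosome 5, 3341004 to 3531008) stood at 24.6 and 32.5 CPM in the labelled G9a/GLP DKO and in G9a CM, against 58.9 CPM in WT TT2. It was lower only in the labelled G9a/GLP DKO by the size rule, 2.39-fold (interval 2.12 to 2.71), but not by deposited TPM, at 3.78 against 5.55; in G9a CM the level was 0.551 times that of WT TT2 (interval 0.499 to 0.608). In the Dnmt lines it stood at 42.6 and 37.5 CPM in DnmtDKO and DnmtTKO against 53.2 in WT J1, and in the inhibitor libraries at 48.1 CPM in the control and 33.5, 42.6 and 27.3 CPM on days 2, 4 and 14.

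Per length, Cdk4 exceeded Cdk6 in every library. The ratio of their TPM was 111 to 253 in the 6 libraries of the mutants and their wild types and 31.0 to 45.9 in the 4 inhibitor libraries. Cdk6 TPM was 3.05 to 5.55 in those 6 libraries and 20.62 to 32.05 in the inhibitor libraries, although its CPM overlapped between them. The effective length RSEM gave Cdk6 moved with this, at 7256 to 11341 bases in the 6 libraries and 1590 to 2107 bases in the inhibitor libraries. How far the assigned transcript length accounts for the Cdk6 TPM difference was not tested.

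Cdkn2b (ENSMUSG00000073802.4, chromosome 4, 89306289 to 89311032) encodes p15Ink4b, an inhibitor of Cdk4 and Cdk6. It was higher in all 4 mutant lines, at low levels throughout. It stood at 8.26 CPM in the labelled G9a/GLP DKO and 3.24 in G9a CM against 1.10 in WT TT2, from 105, 55 and 28 counts. The ratio was 7.50-fold higher (interval 4.91 to 11.8) in the labelled G9a/GLP DKO and 2.94-fold higher (interval 1.83 to 4.82) in G9a CM, where the log2 difference of 1.01 lay just past the threshold. It was also 2.55-fold higher (interval 1.82 to 3.60) in the labelled G9a/GLP DKO than it was in G9a CM.

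In the Dnmt lines Cdkn2b stood at 5.32 CPM in DnmtDKO and 4.44 in DnmtTKO against 0.604 in WT J1, from 89, 81 and 9 counts. Against WT J1, DnmtDKO had an 8.80-fold higher level (interval 4.43 to 19.9) and DnmtTKO a 7.34-fold higher one (interval 3.68 to 16.6). Of the 10 genes, Cdkn2b was the only one that passed the size rule in the same direction in all 4 mutant lines. The share of all genes that did so was not counted here, and the lines of each parent share their wild-type library. After UNC0638 it stood at 2.57 CPM in the control and at 1.48, 2.91 and 5.04 CPM on days 2, 4 and 14. None of the days passed the size rule; on day 14 the ratio was 1.96 (interval 1.30 to 3.01) with a log2 difference of 0.76. The long noncoding RNA Gm12610, which overlaps Cdkn2b in RefSeq, was at most at 0.134 CPM.

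Cdkn2a and Cdkn2c, the other INK4 genes of the list, stayed under 1 CPM in all 10 libraries. Cdkn2a (ENSMUSG00000044303.6, chromosome 4, 89274473 to 89294619), which lies beside Cdkn2b and encodes both p16Ink4a and, from another reading frame, p19Arf, had 2 to 9 counts per library, or 0.147 to 0.551 CPM. Its products are not separated by a value per gene. Cdkn2c (ENSMUSG00000028551.14, chromosome 4, 109660876 to 109666756), which encodes p18Ink4c, had 1 to 12 counts, or 0.0671 to 0.775 CPM. Against 1 Cdkn2c count in WT J1, DnmtDKO and DnmtTKO had 9 counts each, with ratios of 8.01 (interval 1.11 to 351) and 7.34 (interval 1.02 to 322), under the minimum of 1 CPM used here. For both genes, between neighbours in the order of the 10 libraries every interval of the ratio held 1.

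Cdkn1b (ENSMUSG00000003031.14, chromosome 6, 134920401 to 134925525) encodes p27Kip1. It was lower in DnmtTKO, at 1.26 CPM there and 3.82 in DnmtDKO against 7.18 in WT J1, from 23, 64 and 107 counts. The ratio was 5.70-fold lower (interval 3.61 to 9.38) in DnmtTKO than in WT J1. It was 3.04-fold lower (interval 1.86 to 5.12) than in DnmtDKO, though not past the size rule by deposited TPM, at 0.53 against 1.69. In the labelled G9a/GLP DKO and in G9a CM it stood at 3.86 and 5.18 CPM against 8.42 in WT TT2; the first difference, -0.96 on the log2 scale, lay just under the threshold. After UNC0638 it stood at 2.57 CPM in the control and at 4.89, 1.49 and 1.94 CPM on days 2, 4 and 14, none past the size rule against the control. The day 4 level was 3.29-fold lower (interval 2.10 to 5.33) than that of day 2.

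Counted together, 2 of the 10 genes were higher and 2 lower in the labelled G9a/GLP DKO against WT TT2 (Ccnd3 and Cdkn2b, Ccnd2 and Cdk6), where 16.9% of all 14027 genes tested passed the size rule, 9.77% higher and 7.09% lower. In G9a CM against WT TT2, 2 were higher (Ccnd3, Cdkn2b) and 1 lower (Ccnd2), with 10.5% of 13504 genes passing, 5.40% higher and 5.07% lower. In DnmtDKO against WT J1, 3 were higher (Ccnd2, Cdkn2b, Ccne1) and none of the 10 lower, with 19.1% of 13743 genes passing, 9.23% higher and 9.89% lower. The same 3 were higher and Cdkn1b lower in DnmtTKO, with 21.7% of 13924 genes passing, 11.0% higher and 10.6% lower. The members were 4, 3, 3 and 4 of 10 in these comparisons, above those shares, and nothing is read from this. The median log2 difference of the 8 genes measured was 0.19, 0.33, 0.50 and 0.61 in these comparisons, against 0.04, -0.03, 0.01 and -0.02 over all genes measured.

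On day 2 of UNC0638, 3 of the 10 genes were lower (Ccnd1, Ccnd2, Ccne1) and none of the 10 higher, with 4.96% of 13294 genes passing the size rule in either direction, 3.12% higher and 1.84% lower. With deposited TPM the count on day 2 was 1, Ccnd2. On day 4 Ccnd2 alone of the 10 was lower, with 2.62% of 13112 genes passing, 1.95% higher and 0.671% lower. On day 14 it was again Ccnd2 alone, with 3.45% of 13269 genes passing, 2.92% higher and 0.535% lower. The median log2 difference of the 8 genes measured was -0.55 on day 2, 0.00 on day 4 and -0.22 on day 14, against 0.01, 0.00 and 0.00 over all genes measured. On day 4 against day 2, 2 of the 10 were higher (Ccnd1, Ccne1) and 1 lower (Cdkn1b), with 4.31% of 13324 genes passing, 1.91% higher and 2.39% lower. On day 14 against day 4 none of the 10 passed, with 1.90% of 13259 genes passing, 1.61% higher and 0.294% lower; by deposited TPM Ccnd2 passed, with a ratio of 2.14. On day 4 against day 2, Ccnd1 and Ccne1 did not pass by TPM.

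**Figure D3:**
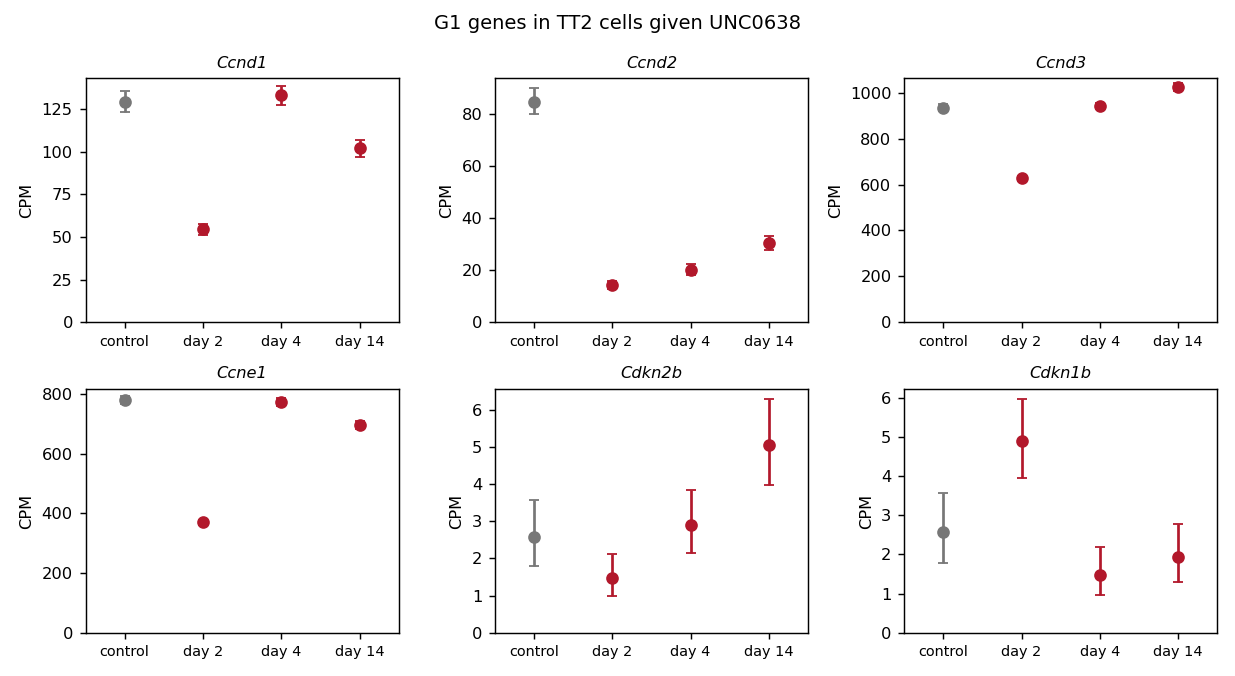
CPM of 6 of the genes in TT2 cells given DMSO (control, grey, no day in its title) or given UNC0638 and collected on day 2, 4 or 14 (red). Each point is a single library with its exact 95% Poisson interval (counting error only). By CPM, Ccnd1, Ccnd2, Ccnd3, Ccne1 and Cdkn2b are lowest on day 2. Of these, Ccnd1, Ccnd2 and Ccne1 pass the size rule against the control on day 2, and only Ccnd2 does on days 4 and 14.

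The members also differed between wild-type libraries. In the inhibitor control against WT TT2, 8 of the 10 were measured, with 4 higher (Ccnd1, Ccnd2, Ccnd3, Ccne1) and 1 lower (Cdkn1b). Of all genes tested there, 47.2% passed, 25.2% higher and 22.0% lower, and nothing is read from the member count. In WT J1 against WT TT2, 3 were lower (Ccnd1, Ccnd2, Ccne1) and none higher, with 23.5% of 13735 genes passing, 12.5% higher and 11.0% lower. Between the mutants, 1 of 10 was higher (Cdkn2b) and 1 lower (Ccnd2) in the labelled G9a/GLP DKO against G9a CM, with 9.65% of 13869 genes passing, 6.67% higher and 2.99% lower. In the other pair 1 was lower (Cdkn1b) in DnmtTKO against DnmtDKO, with 3.14% of 13461 genes passing, 1.79% higher and 1.35% lower.

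**Figure D4:**
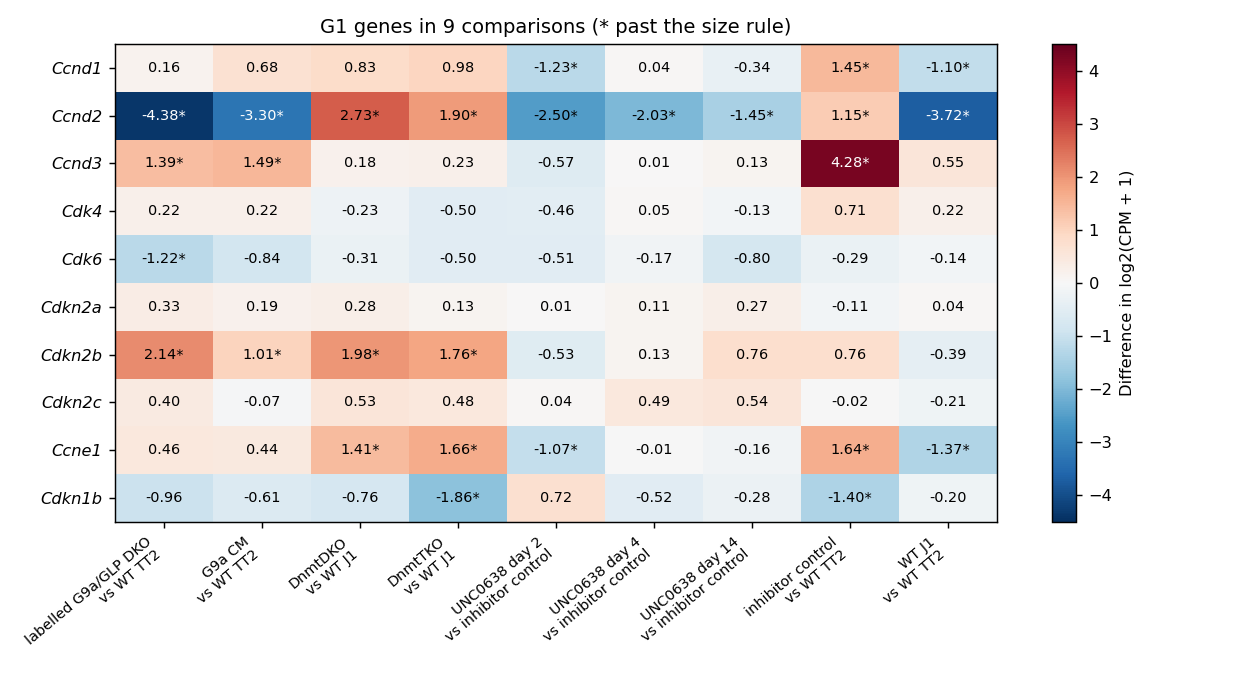
Differences in log2(CPM + 1) of the 10 genes (rows) in 9 comparisons (columns), each between 2 single libraries; red is higher in the library named first, blue lower, and an asterisk marks a difference past the size rule. Ccnd2 passes it in all 9 comparisons and Cdkn2b in the 4 mutant lines.

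Genes that work beside the members were counted from 6 lists of cell cycle and Polycomb genes. Over all genes tested, 9.77% were higher and 7.09% lower in the labelled G9a/GLP DKO, and 5.40% and 5.07% in G9a CM. In DnmtDKO 9.23% were higher and 9.89% lower, and in DnmtTKO 11.0% and 10.6%. On days 2, 4 and 14 of UNC0638, 3.12%, 1.95% and 2.92% were higher and 1.84%, 0.671% and 0.535% lower. These shares belong beside the counts of all 6 lists, and nothing is read from those counts. Of 13 other cyclin, kinase and CDC25 genes, none was higher and 1 was lower in the labelled G9a/GLP DKO, Ccnb2, which encodes the mitotic cyclin B2, at 345 against 861 CPM in WT TT2. In both Dnmt lines 1 of the 13 was lower, Mnat1, which encodes a subunit of the Cdk-activating kinase, at 158 CPM in each against 319.8 CPM in WT J1. None of the 13 passed the size rule in G9a CM or on any day of UNC0638. Of 13 pocket protein and E2F or DP factor genes, none passed in the G9a lines or in DnmtDKO. In DnmtTKO 1 was lower, Rbl1, which encodes the pocket protein p107, at 13.1 against 27.5 CPM in WT J1, and on day 2 of UNC0638 1 was lower, E2f4, at 58.5 against 144 CPM in the control.

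Of the 4 other inhibitor genes (Cdkn1a, Cdkn1c, Cdkn2d, Cdkn3), Cdkn1c, which encodes p57Kip2, was higher in the labelled G9a/GLP DKO, at 5.67 against 2.28 CPM in WT TT2. It was lower in both Dnmt lines, at 10.3 CPM in DnmtDKO and 8.21 in DnmtTKO against 23.7 in WT J1, and on day 2 of UNC0638, at 1.37 against 6.46 CPM in the control. Cdkn1c is an imprinted gene. Cdkn3, which encodes a phosphatase of the cyclin-dependent kinases, was lower in the labelled G9a/GLP DKO, at 9.05 against 36.2 CPM in WT TT2. None of these 4 passed in G9a CM or on days 4 and 14.

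Of 11 genes for the turnover of D-type cyclins and p27Kip1, Cryab, whose product alpha B crystallin works with the F-box protein Fbxo4 on cyclin D1, was lower in 3 mutant lines. It stood at 1.10 CPM in the labelled G9a/GLP DKO against 4.84 in WT TT2, and at 4.96 and 8.16 CPM in DnmtDKO and DnmtTKO against 43.4 in WT J1. Fbxo31, an F-box gene, was lower on day 2 of UNC0638, at 24.6 against 73.1 CPM in the control. The other members of this list did not pass in the mutant lines or under UNC0638.

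Of 12 S phase genes under E2F, Ung, which encodes uracil-DNA glycosylase, was higher in the labelled G9a/GLP DKO and in G9a CM, at 44.5 and 48.3 CPM against 21.4 in WT TT2. Pola1, which encodes the catalytic subunit of DNA polymerase alpha, was lower in DnmtDKO and DnmtTKO, at 57.2 and 34.6 CPM against 123 in WT J1. In DnmtTKO the origin licensing gene Cdc6 was higher, at 109.9 against 44.3 CPM in WT J1, as was the thymidine kinase gene Tk1, at 117 against 56.2 CPM. No S phase gene of the 12 passed on any day of UNC0638. The median log2 difference of these genes was -0.25 in the labelled G9a/GLP DKO, -0.10 in G9a CM, -0.39 in DnmtDKO and -0.46 in DnmtTKO.

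Polycomb proteins are known to hold the INK4 locus silent. Of 10 Polycomb genes, Bmi1 was higher in the labelled G9a/GLP DKO, at 14.7 against 2.16 CPM in WT TT2, and in both Dnmt lines, at 17.3 and 17.4 CPM in DnmtDKO and DnmtTKO against 6.38 in WT J1. In G9a CM, Bmi1 stood at 2.36 CPM and none of the 10 Polycomb genes passed. Eed was lower in DnmtDKO, at 442 against 1089.9 CPM in WT J1. In DnmtTKO, Suz12 was higher, at 361 against 178 CPM, and so was Cbx8, which had 1.20 CPM against 0 counts in WT J1. No Polycomb gene of the list passed under UNC0638. Whether the level of these genes bears on Cdkn2b was not tested.

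The medians of these lists are given in the order labelled G9a/GLP DKO, G9a CM, DnmtDKO and DnmtTKO, each against its wild type. The other cyclin, kinase and CDC25 genes had a median log2 difference of -0.41, -0.21, -0.21 and -0.28. The pocket protein and E2F genes had 0.03, -0.01, 0.04 and -0.27. The other inhibitor genes had -0.25, -0.19, -0.33 and -0.48. The turnover genes had -0.39, -0.25, 0.09 and -0.02, and the 8 or 9 Polycomb genes measured had 0.18, -0.01, 0.13 and 0.59. Over all genes measured the medians were 0.04, -0.03, 0.01 and -0.02.

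Around Ccnd2, RefSeq lists 29 genes whose start lies within 500 kb of its own; 24 of them are in the files and 8 reached 1 CPM in a library. Tigar, which encodes a fructose bisphosphatase and whose start coordinate is 40 kb below that of Ccnd2, stood at 83.3 CPM in the labelled G9a/GLP DKO and 116 in G9a CM against 168 in WT TT2. It was lower only in the labelled G9a/GLP DKO, with a log2 difference at the threshold of 1. In the Dnmt lines Tigar stood at 64.6 and 78.0 CPM in DnmtDKO and DnmtTKO against 64.8 in WT J1. Under UNC0638 it stood at 144 CPM in the control and at 112, 152 and 151 CPM on days 2, 4 and 14. In the Dnmt lines and on these days Tigar did not pass the size rule, while Ccnd2 was higher in the Dnmt lines and lower on each day.

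Of the 8 neighbours, 7 were measured in the labelled G9a/GLP DKO against WT TT2, with 1 higher (Dyrk4) and 3 lower (Tigar, Gm7308, Parp11). In G9a CM 1 of 7 was higher (Dyrk4) and 1 lower (Parp11). In DnmtDKO 2 of 6 were lower (Rad51ap1, Parp11) and in DnmtTKO 1 of 6 (Rad51ap1), with none of them higher in either Dnmt line. Over all genes tested, 16.9% passed the size rule in the labelled G9a/GLP DKO, 10.5% in G9a CM, 19.1% in DnmtDKO and 21.7% in DnmtTKO. Nothing is read from the neighbour counts. Dyrk4 and Gm7308 were at low levels, 0.590 and 4.52 CPM in WT TT2. On day 2 of UNC0638 Dyrk4 was higher, at 1.88 against 0.147 CPM in the control, where 4.96% of all genes tested passed. The difference in Ccnd2 exceeded that of each measured neighbour in size in all 4 mutant lines; the neighbour differences ran from -1.49 to 2.40 on the log2 scale.

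**Figure D5:**
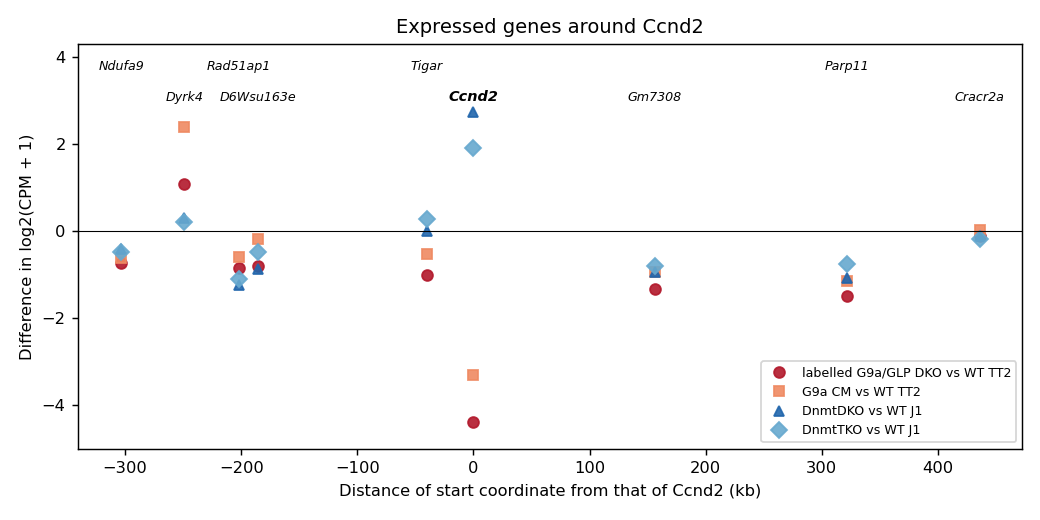
Difference in log2(CPM + 1) of Ccnd2 and the 8 neighbouring genes that reached 1 CPM (vertical) by the distance between their start coordinates in kb (horizontal), for the 4 mutant lines against their wild type. Ccnd2, at distance 0, has the lowest value in both G9a lines (-4.38 and -3.30) and the highest in both Dnmt lines (2.73 and 1.90).

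The genes whose log2(CPM + 1) most resembled that of Ccnd2 over the 10 libraries were sought among 9432 protein-coding genes that reached 10 CPM. The nearest 5 by Pearson's r were Orc2 (0.912), which encodes a subunit of the origin recognition complex, Pmvk (0.908), which encodes phosphomevalonate kinase, Crabp1 (0.884), a retinoic acid binding protein gene, Syt11 (0.884), a synaptotagmin gene, and Fgf17 (0.868), a fibroblast growth factor gene. Of these, Orc2 stood at 138 CPM in the labelled G9a/GLP DKO and 172 in G9a CM against 243 in WT TT2. Among the members, r with Ccnd2 ran from -0.524 for Cdkn2a to 0.578 for Ccne1. These values describe 10 libraries that share controls and the gap between the inhibitor libraries and the others, and they were the best of many searched.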

How the data were processed

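Expected counts and TPM per gene from RNA-seq were read for 10 libraries (Smart-seq2, total RNA, per the labels' protocols); the other 120 of 130 samples were not analysed here. Per the submitters' processing notes, STAR 2.5.3a and RSEM were used with GRCm38 (mm10). The deposited expected counts share out reads that match several transcripts or genes, and the deposited TPM are scaled for effective length and library total, per the file headers. The same files hold effective lengths and, as signal values deposited by the authors, RSEM's posterior standard deviation of each count and interval bounds of TPM. Symbols were matched for 99.7% of gene IDs.

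Expected counts were rounded, and CPM were computed with TMM factors (edgeR 4.0.16, R 4.3.3) over all 10 libraries. Differences are in log2(CPM + 1); a fold is the plain CPM ratio with exact 95% conditional binomial (Clopper-Pearson) intervals of the count ratio. A pseudocount of 1 CPM understates differences of genes with low counts. Total counts of 11436808 to 25609600 set the precision, and 3 counts correspond to 0.118 to 0.236 CPM. The comparison step was tested on simulated counts. Named genes were the 10 members, the members of 6 lists with the largest difference past the size rule, expressed neighbours of Ccnd2 and the 5 genes most like Ccnd2; E2f4, Fbxo31 and other single genes called by name in small counts were named after their values were seen. Members and lists were chosen with earlier results of these data known. Alternatives were scaling by total count, DESeq2 1.42.0 size factors, TPM, no minimum, a pseudocount of 0.5 CPM, other control libraries and RSEM's posterior mean TPM. Motif letters, CpG and promoter windows came from RefSeq windows, and genes overlapping a member from the RefSeq gene table of GRCm38.p6. Groups hold 1 library each, so no p-value is given.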

Additional observations from a re-analysis of the deposited data

Results flagged for a closer look

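Some members moved in opposite directions on different days of UNC0638 against the shared inhibitor control, each day being a single library, and the difference between days was not tested. The values that follow are log2 ratios of CPM to that control. For Ccnd3 the ratio was -0.58 on day 2 and 0.13 on day 14. For Cdk4 it was -0.46 on day 2, 0.05 on day 4 and -0.13 on day 14. For Cdkn2b it was -0.80 on day 2 and 0.97 on day 14. For Cdkn1b it was 0.93 on day 2 and -0.79 on day 4. None of these ratios passed the size rule against the control.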

How the results depend on the processing

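No paired analysis was possible because each group holds 1 library, and for the same reason no library could be left out. Values here are log2 ratios unless named as counts. With another control library, Ccnd2 in the labelled G9a/GLP DKO (-5.45) was -6.62 against the inhibitor control and -1.17, not past the size rule, against WT J1; in G9a CM (-3.68) it was -4.85 and 0.60. Against WT TT2 it was -1.03 in DnmtDKO (3.25) and -1.92 in DnmtTKO (2.36), and -1.41, -0.91 and -0.31 on days 2, 4 and 14 (-2.58, -2.08 and -1.48). With deposited TPM Ccnd2 was 4.38 in DnmtDKO, 4.42 in DnmtTKO, -2.36 and -1.27 on days 4 and 14, 1.38 for the inhibitor control against WT TT2 (1.17) and -5.41 for WT J1 against WT TT2 (-4.28). With total counts it was -2.36 on day 2. The cause of these shifts was not tested. Of 39 Ccnd2 values under another scaling, 29 moved by less than their counting interval and 1 changed direction, DnmtTKO against DnmtDKO with TPM (0.04, against -0.89). With RSEM's posterior mean TPM, an alternative chosen after seeing the data, Ccnd2 was -0.33 in the labelled G9a/GLP DKO, -1.03 in G9a CM, 1.15 in DnmtDKO, 1.06 in DnmtTKO, -1.73, -1.51 and -1.22 on days 2, 4 and 14, 2.19 for the inhibitor control and -1.34 for WT J1 against WT TT2, and it turned to 0.71 for the labelled G9a/GLP DKO against G9a CM (-1.77). The count of members past the size rule stayed within 1.5 times the first count in 44 of 45 cases; on day 2 it was 1 with TPM, against 3. With WT TT2 as control it was 1 in DnmtDKO against 3, and 4 and 6 on days 4 and 14 against 1 each. Directions also turned for Ccnd3 against the inhibitor control (-2.90 in the labelled G9a/GLP DKO, -2.80 in G9a CM) and on day 2 against WT TT2 for Ccnd1 (0.22) and Ccne1 (0.57). All genes past the size rule numbered 1030 on day 2 with TPM (660), 545 with TPM and 543 with a pseudocount of 0.5 CPM on day 4 (344), and 701 with TPM on day 14 (458). Scaling moved the median of all genes most with TPM, by -0.29 for WT J1 against WT TT2. The share of calls that were higher moved with total counts to 70.0% in the labelled G9a/GLP DKO (57.9%), 63.7% in DnmtDKO (48.3%), 65.5% in DnmtTKO (50.9%), 83.1% on day 2 (62.9%) and 43.2% for WT J1 against WT TT2 (53.3%). With TPM it was 72.8% in DnmtDKO, 73.6% in DnmtTKO, 78.3% on day 2 and 29.9% for WT J1 against WT TT2, and with DESeq2 size factors 51.6% on day 2. Low counts limit Cdkn2a and Cdkn2c in all libraries.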
